A study of Homo sapiens with 11 samples.

Results

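The genes described here are 45 interferon-stimulated genes, taken by their symbols from the authors' deposited table of 23434 rows, and all 45 were found there. They were measured by RNA-seq in liver tumours grown from PANC1 LM3 cells, a liver-metastatic derivative, of generation 3, of the established human pancreatic ductal carcinoma line PANC1. The cells carried the NPTX1 hairpin shNPTX1_3 (3 libraries), the NPTX1 hairpin shNPTX1_4 (4 libraries) or the control hairpin shCTRL (4 libraries, genotype given as WT). Each host received 500000 cells by the spleen on day 1, and liver tumours were taken on day 21, so all the groups shared the parent line, the route and the host organ. The host strain, its immune status and whether each library came from its own animal are not stated in the sources at hand, so the p-values measure only the spread of these libraries, part of which may be technical.

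Interferons are secreted proteins that bind cell surface receptors and, through JAK kinases, activate STAT transcription factors. After type I and type III interferons, the complex ISGF3, which holds STAT2 and IRF9, binds the interferon-stimulated response element (ISRE) in promoters, while interferon gamma acts mainly through the gamma-activated site (GAS). The induced genes encode sensors of foreign RNA, enzymes and binding proteins that block viruses, and brakes on the pathway itself. Many tumour cell lines express a part of this set without infection.

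The values are group means of normalized counts (reads on a gene divided by a size factor of the library), so no spread between libraries stands beside them. Errors of the changes are standard errors from the authors' deposited table, which compares the 7 NPTX1 knockdown libraries as 1 group with the 4 shCTRL libraries by DESeq2. Genes were called at a DESeq2 adjusted p under 0.05. The commonest steps in the low group means, taken as 1 read each, put the libraries at about 10800000 to 24000000 reads on genes with shNPTX1_3, 16600000 to 26100000 with shNPTX1_4 and 13000000 to 41200000 with shCTRL. These depths are estimates: of the group means above 0 and up to 1 normalized count, 20.4% with shNPTX1_3, 18.7% with shNPTX1_4 and 16.2% with shCTRL were not whole multiples of the steps or sums of such multiples (within 1e-05), so some counts may not be whole reads. The targeted gene NPTX1 had group means of 46.5 normalized counts with shNPTX1_3, 38.4 with shNPTX1_4 and 103 with shCTRL in the authors' deposited table, or 0.417-fold (log2 -1.26, standard error 0.24, DESeq2 adjusted p = 3.65e-06). The tumour cell markers ran, in the authors' deposited table, down from vimentin (VIM), with 68672 normalized counts with shNPTX1_3, 68305 with shNPTX1_4 and 60617 with shCTRL, to KRT7, with 52.5 with shNPTX1_3, 27.7 with shNPTX1_4 and 11.1 with shCTRL. Of the hepatocyte genes, ALB had 0.616 with shNPTX1_3, 0.284 with shNPTX1_4 and 0.784 with shCTRL in the authors' deposited table, while APOA1 had 49.3 with shNPTX1_3, 21.9 with shNPTX1_4 and 9.99 with shCTRL, and SERPINA1 had 48.2 with shNPTX1_3, 25.6 with shNPTX1_4 and 28.9 with shCTRL.

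Of the 45 genes, 36 had a promoter window in the RefSeq table (build GRCh38.p14), running from 250 bases before to 50 after a gene's start. The ISRE core (GAAA, any 2 bases, then GAAA) was searched on both strands, and 26 of the 36 genes (72.2%) held it in at least 1 window, against 1195 of 27305 genes in the table (4.38%). The GAS motif TTCNNNGAA, searched in the same way, was in 11 of the 36 (30.6%) and in 2560 of the 27305 genes (9.38%). Of the genes with a window, 9 had more than 1. IRF7, IFIT2, IFITM2, MX2, OAS2, OASL, USP18, TRIM22 and GBP2 had no entry. A match is a description of letters, not of a bound site. Stretches of 6 promoters are shown because they belong to genes that rose or fell in the knockdown tumours or, for PARP14 and OAS3, have the highest mean counts among the remaining genes with the core before the start. Each runs 5′ to 3′ on the strand of its gene, ends no later than the gene's start and has the ISRE core in capitals, read as TTTC where the core lies on the opposite strand.
SAMD9 (chr7:93118066-93118155, minus strand): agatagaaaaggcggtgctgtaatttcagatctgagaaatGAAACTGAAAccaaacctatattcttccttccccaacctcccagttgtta
HERC5 (chr4:88456954-88457094, plus strand): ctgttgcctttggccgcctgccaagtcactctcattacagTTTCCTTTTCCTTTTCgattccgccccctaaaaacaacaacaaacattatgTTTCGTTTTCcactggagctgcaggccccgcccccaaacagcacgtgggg
IFITM3 (chr11:320861-320952, minus strand): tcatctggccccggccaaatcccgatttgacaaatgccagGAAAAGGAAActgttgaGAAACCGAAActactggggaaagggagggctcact
IFITM1 (chr11:313960-314039, plus strand): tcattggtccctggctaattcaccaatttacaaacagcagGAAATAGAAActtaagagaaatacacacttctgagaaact
PARP14 (chr3:122680770-122680838, plus strand): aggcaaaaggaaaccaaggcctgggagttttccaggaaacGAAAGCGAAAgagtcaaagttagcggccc
OAS3 (chr12:112938291-112938473, plus strand): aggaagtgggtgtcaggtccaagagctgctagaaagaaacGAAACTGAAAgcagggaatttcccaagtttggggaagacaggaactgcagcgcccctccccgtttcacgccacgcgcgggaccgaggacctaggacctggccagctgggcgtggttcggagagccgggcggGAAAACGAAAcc
Of the genes shown, SAMD9 rose, and HERC5, IFITM3, IFITM1 and OAS3 fell. A core within 250 bases before the start was a condition for being shown, so its presence here is not a result. SAMD9L, which rose, and HERC6, which fell, were passed over because they had no core in their window. HERC5 had 3 matches, of which the first 2 overlapped, and IFITM3 and OAS3 had 2 each. By call, the core was in 1 of 2 genes with a window that rose, 5 of 6 that fell and 20 of 28 that did not pass the test.

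Across the knockdown tumours the group did not move as a block. In the authors' deposited table, 3 of the 45 genes were higher and 7 lower at a DESeq2 adjusted p under 0.05, and 35 did not pass. Over all 18426 named genes with an adjusted p, 27.3% were called, 15.8% higher and 11.5% lower, so the 10 called genes (22.2%) were near the background share. The median log2 fold change was 0.04 over the 45 genes and -0.01 over all genes in the authors' deposited table, and the median absolute log2 fold change was 0.28 and 0.26. Pooling averages the hairpins, so shifts in opposite directions offset each other in this comparison. Taken apart, with no test, the median log2 ratio to control of 40 of the genes was 0.34 with shNPTX1_3 and -0.29 with shNPTX1_4. At an unadjusted p under 0.05 the number was 15 of 45. The share over all genes at that threshold was not counted, so whether 15 is more than the background is not known. Every one of the 10 called genes stood on the same side of shCTRL with each hairpin. The pooled comparison favours such genes, so this is not separate evidence that the hairpins agree. The share over all called genes was not counted.

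**Figure D1:**
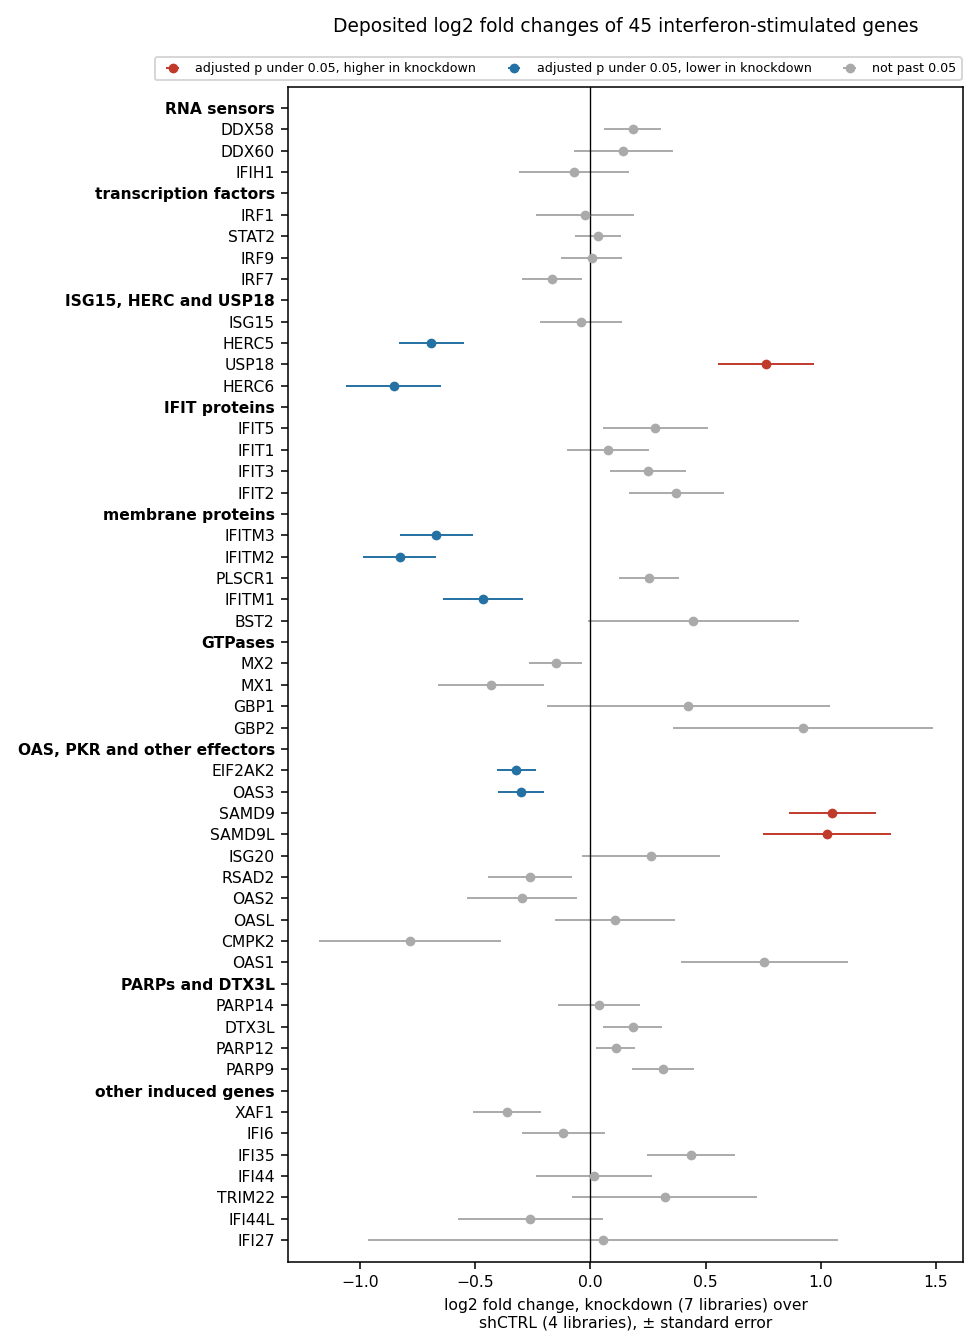
Log2 fold change of each gene in the authors' deposited table, the 7 knockdown libraries over the 4 shCTRL libraries (horizontal axis), with bars of 1 standard error, grouped by role. Red marks the 3 genes called higher, blue the 7 called lower and grey the 35 that did not pass.

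The largest increases were in SAMD9 and SAMD9L, neighbouring genes on chromosome 7 whose products restrict poxviruses and restrain cell growth. SAMD9 had group means of 579.9 normalized counts with shNPTX1_3, 361 with shNPTX1_4 and 219 with shCTRL in the authors' deposited table. Its level was thus highest with shNPTX1_3 and above control with both hairpins, and the fold change was 2.07 (log2 1.05, standard error 0.19, DESeq2 adjusted p = 9.78e-07 in the authors' deposited table). SAMD9L had 489 normalized counts with shNPTX1_3, 221 with shNPTX1_4 and 164 with shCTRL in the authors' deposited table, a fold change of 2.04 (log2 1.03, standard error 0.28, DESeq2 adjusted p = 0.00205). The rise of SAMD9L was carried more by shNPTX1_3 (log2 ratio to control 1.57) than by shNPTX1_4 (0.42), a difference that was not tested. SAMD9 and SAMD9L were the only members called with a change of at least 2-fold.

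USP18, a protease that strips the ubiquitin-like protein ISG15 from its targets and damps signalling at the interferon receptor, was the third gene that rose. It had 205 normalized counts with shNPTX1_3, 123 with shNPTX1_4 and 92.5 with shCTRL in the authors' deposited table, a fold change of 1.70 (log2 0.76, standard error 0.21, DESeq2 adjusted p = 0.0020). HERC5, the main ligase that attaches ISG15 in human cells, fell: its means were 103 normalized counts with shNPTX1_3, 91.5 with shNPTX1_4 and 156 with shCTRL in the authors' deposited table (log2 fold change -0.69, standard error 0.14, DESeq2 adjusted p = 1.55e-05). Its neighbour HERC6, the counterpart ligase in mouse, fell as well, with 36.0 normalized counts with shNPTX1_3, 34.2 with shNPTX1_4 and 61.6 with shCTRL in the authors' deposited table (log2 fold change -0.86, standard error 0.21, DESeq2 adjusted p = 4.34e-04). ISG15 itself had 257 normalized counts with shNPTX1_3, 201 with shNPTX1_4 and 230 with shCTRL in the authors' deposited table and did not pass the test (log2 fold change -0.04, DESeq2 adjusted p = 0.893). Among these 4 genes the protease therefore moved up and both HERC genes down, while the modifier had means on either side of control.

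All 3 IFITM genes, which encode small membrane proteins that hinder the fusion of viruses with cell membranes, fell. IFITM3 had 887 normalized counts with shNPTX1_3, 751 with shNPTX1_4 and 1288 with shCTRL in the authors' deposited table (log2 fold change -0.67, standard error 0.16, DESeq2 adjusted p = 3.26e-04). IFITM2 had 243 normalized counts with shNPTX1_3, 279 with shNPTX1_4 and 471 with shCTRL in the authors' deposited table, or 0.563-fold (log2 -0.83, standard error 0.16, DESeq2 adjusted p = 4.37e-06). IFITM1 had 41.7 normalized counts with shNPTX1_3, 46.3 with shNPTX1_4 and 62.5 with shCTRL in the authors' deposited table (log2 fold change -0.47, standard error 0.17, DESeq2 adjusted p = 0.0313). These genes are not independent measurements, because they share sequence. Of the 50-base windows in GENCODE v29 coding transcripts of IFITM2, 24.7% also occurred in IFITM1, and of those of IFITM3 12.1% occurred in IFITM2, and IFITM1 and IFITM2 have overlapping exons there. How the authors' counting divided such reads is not stated in the sources at hand. The other membrane proteins of the group did not pass the test. PLSCR1, a phospholipid scramblase, had 499 normalized counts with shNPTX1_3, 446 with shNPTX1_4 and 395 with shCTRL in the authors' deposited table, with a DESeq2 adjusted p of 0.133, and BST2, the virus tether tetherin, had only 11.5 with shNPTX1_3, 6.99 with shNPTX1_4 and 5.89 with shCTRL.

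The remaining called genes were enzymes that respond to double-stranded RNA, and their changes were small. EIF2AK2 encodes PKR, the kinase that stops translation when it binds such RNA, and had 1691 normalized counts with shNPTX1_3, 1752 with shNPTX1_4 and 2157 with shCTRL in the authors' deposited table, or 0.80-fold (log2 -0.32, standard error 0.08, DESeq2 adjusted p = 0.00112). OAS3, which makes the oligoadenylates that activate RNase L, had 999 normalized counts with shNPTX1_3, 862 with shNPTX1_4 and 1132 with shCTRL in the authors' deposited table (log2 fold change -0.30, standard error 0.10, DESeq2 adjusted p = 0.0130). In GENCODE v29, EIF2AK2 has exons that overlap GPATCH11 and a pseudogene on the other strand, and IFITM3 has exons that overlap a lincRNA on the other strand, and the strand setting of the counting is not stated in the sources at hand. The paralogs of OAS3 did not pass. OAS1 had 49.1 normalized counts with shNPTX1_3, 22.1 with shNPTX1_4 and 19.9 with shCTRL in the authors' deposited table, or 1.69-fold (log2 0.76, standard error 0.36, DESeq2 adjusted p = 0.105). OAS2 had 48.2 normalized counts with shNPTX1_3, 30.6 with shNPTX1_4 and 45.4 with shCTRL in the authors' deposited table, and OASL, a family member without the synthetase activity, had 46.8 with shNPTX1_3, 42.8 with shNPTX1_4 and 41.0 with shCTRL. XAF1, an antagonist of the apoptosis inhibitor XIAP, just missed the threshold and was not called. It had 1177 normalized counts with shNPTX1_3, 1052 with shNPTX1_4 and 1419 with shCTRL in the authors' deposited table (log2 fold change -0.36, DESeq2 adjusted p = 0.0526). It was called when every group was scaled to the same total or the changes were centred on their median.

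**Figure D2:**
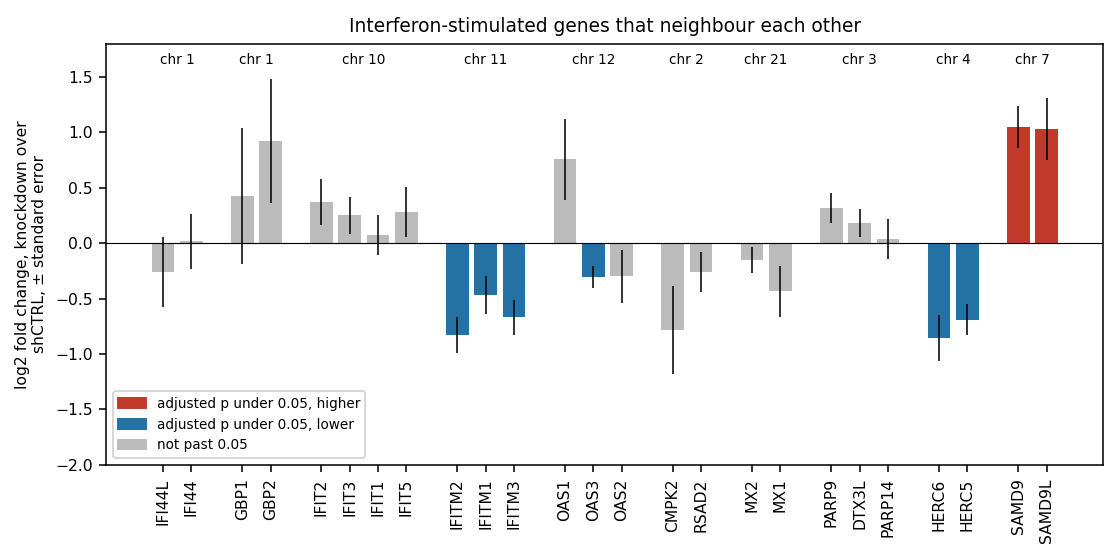
Log2 fold change in the authors' deposited table, the 7 knockdown libraries over the 4 shCTRL libraries (vertical axis, bars of 1 standard error), of the 25 genes that have another gene of the group next to them, in order along each chromosome. The SAMD9 pair on chromosome 7 is the only stretch with genes called higher, and all genes of the IFITM and HERC stretches were called lower.

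Interferon-stimulated genes often lie side by side, some of them as copies of one another. The stretches given here rest on gene order alone and include unlike genes such as RSAD2 and CMPK2. By gene order in RefSeq, with at most 2 other protein-coding genes between neighbours, 25 of the 45 genes fell into 10 stretches. Of the 10 called genes, 8 were among these 25 and 2 among the other 20. Over all named genes with an adjusted p, 27.3% were called. In 3 stretches every gene was called, the IFITM genes on chromosome 11, HERC5 and HERC6 on chromosome 4, and SAMD9 and SAMD9L on chromosome 7. In the OAS stretch on chromosome 12 only OAS3 was called, and the other 6 stretches had no called gene. HERC5 and HERC6, and likewise SAMD9 and SAMD9L, shared 0 of their 50-base windows in GENCODE v29 coding transcripts, so reads of that length can be told apart between the genes of these pairs. Whether neighbours moved together more than genes elsewhere was not tested, and such stretches were not counted over all genes. The IFITM calls are not independent of each other, because those genes share sequence.

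Levels of the genes are compared per kilobase of exon (GENCODE v29, all exons of a gene joined), which does not allow for the choice of transcript. Joined exons can be longer than any 1 transcript, which lowers the value, so the order depends on the annotation. The joined length was 10240 bases for IFI44L and 4147 for IFI27. By their shCTRL means, computed from the authors' deposited table, IFITM3 stood first, with 658 normalized counts per kilobase with shNPTX1_3, 557 with shNPTX1_4 and 955 with shCTRL. DDX58, the RNA sensor RIG-I, followed with 559 per kilobase with shNPTX1_3, 415 with shNPTX1_4 and 419 with shCTRL, and then IFI6, a survival factor, with 388 with shNPTX1_3, 279.7 with shNPTX1_4 and 354 with shCTRL. At the other end stood IFI44L, with 1.41 normalized counts per kilobase with shNPTX1_3, 2.14 with shNPTX1_4 and 2.11 with shCTRL, and IFI27, with 1.44 with shNPTX1_3, 4.49 with shNPTX1_4 and 3.09 with shCTRL. Sensors and the transcription factors were thus present in all groups, while IFI27, IFI44L, OAS1, BST2 and CMPK2 had means under 2 CPM (38.6 normalized counts on average over all libraries).

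**Figure D3:**
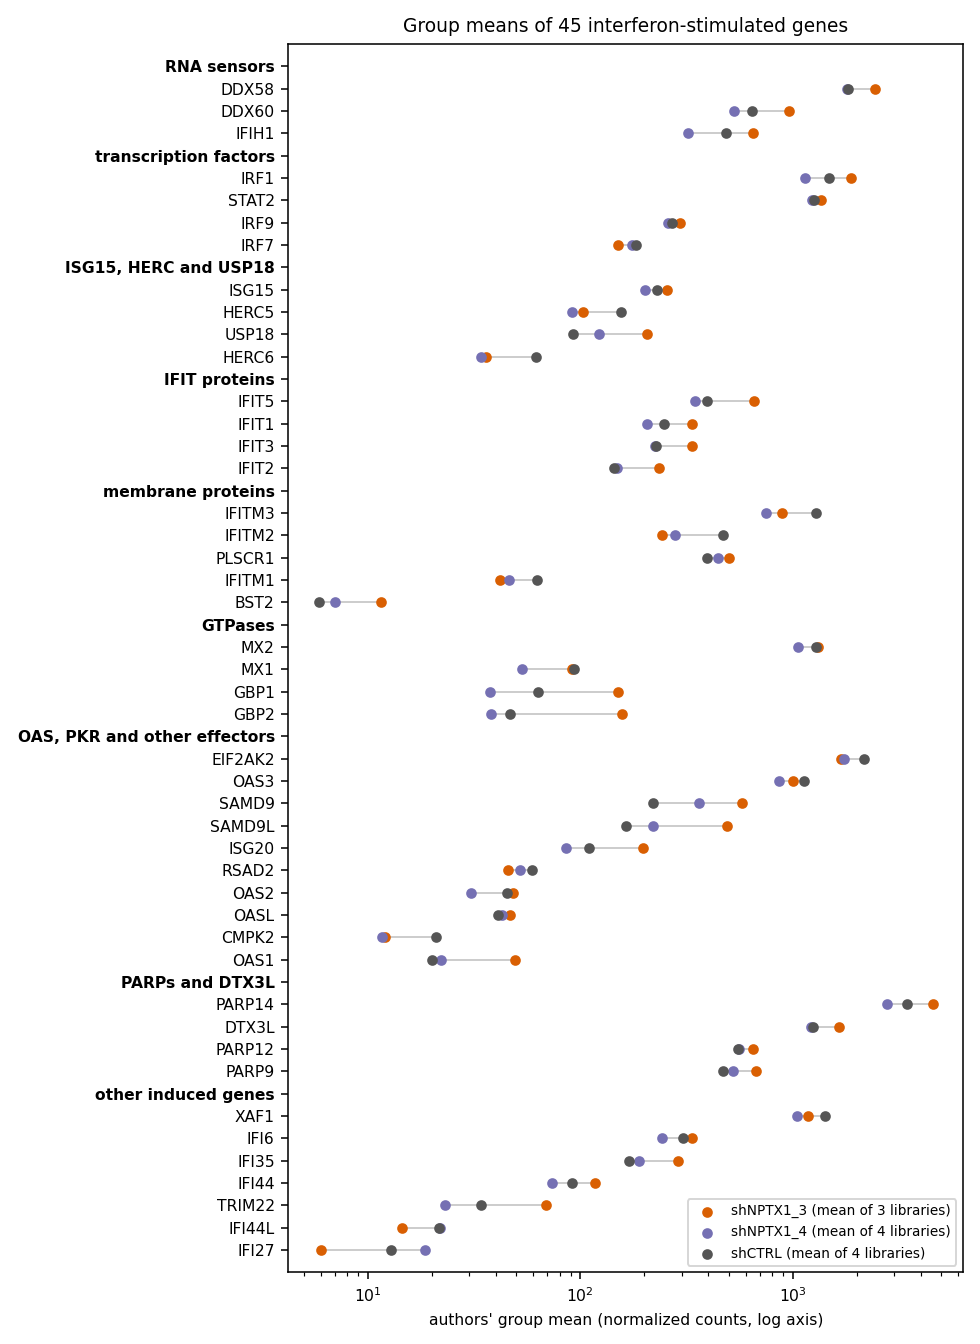
Group means of the 45 genes in normalized counts (log axis) from the authors' deposited table, with orange for shNPTX1_3 (mean of 3 libraries), purple for shNPTX1_4 (4 libraries) and grey for shCTRL (4 libraries). For most genes the orange point lies right of the purple one, and in 20 of the 35 genes that were not called the grey point lies between them with orange on the right. Genes with hairpins on opposite sides of control tend to fail the pooled test. The share over all uncalled genes was not counted.

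With shNPTX1_3 most of the genes had means above control, and with shNPTX1_4 most had means below it. For the 40 genes with a mean of at least 2 CPM, log2 ratios of group means were taken with a pseudocount of 1, with no test, since single libraries were not analysed here. The median log2 ratio to control was 0.34 with shNPTX1_3 and -0.29 with shNPTX1_4, where the medians over all 14131 genes of at least 2 CPM were 0.01 and 0.02. Both ratios share the shCTRL mean. With shNPTX1_3, 29 of the 40 genes lay above control (51.4% of all genes) and 11 below (48.6%), and with shNPTX1_4, 9 lay above (52% of all genes) and 31 below (48%). With shNPTX1_3, 6 of the 40 genes were at least 2-fold above control (2.95% of all genes) and 0 at least 2-fold below (1.51%). With shNPTX1_4, 0 were at least 2-fold above (1.47%) and 0 at least 2-fold below (1.24%). At 1.5-fold, shNPTX1_3 had 10 genes above (8.82% of all genes) and 3 below (7.78%), and shNPTX1_4 had 1 above (4.64%) and 7 below (4.78%).

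Set against each other, shNPTX1_4 tumours had lower means than shNPTX1_3 tumours in 35 of the 40 genes (87.5%), where 47.5% of all genes were lower, and higher means in 5, where 52.5% of all genes were higher. The difference was at least 1.5-fold in 19 genes (47.5%, against 5.72% of all genes) and at least 2-fold in 6 (15.0%, against 1.82%), and 0 genes were at least 1.5-fold (3.16% of all genes) or 2-fold (0.863%) higher with shNPTX1_4. The median log2 ratio of shNPTX1_4 over shNPTX1_3 was -0.45 over the 40 genes and 0.02 over all genes. The 5 genes that were higher with shNPTX1_4 were IRF7, IFITM1, IFITM2, RSAD2 and EIF2AK2, with log2 ratios of 0.21, 0.15, 0.20, 0.18 and 0.05. The spread between libraries within a hairpin is not known for these ratios.

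**Figure D4:**
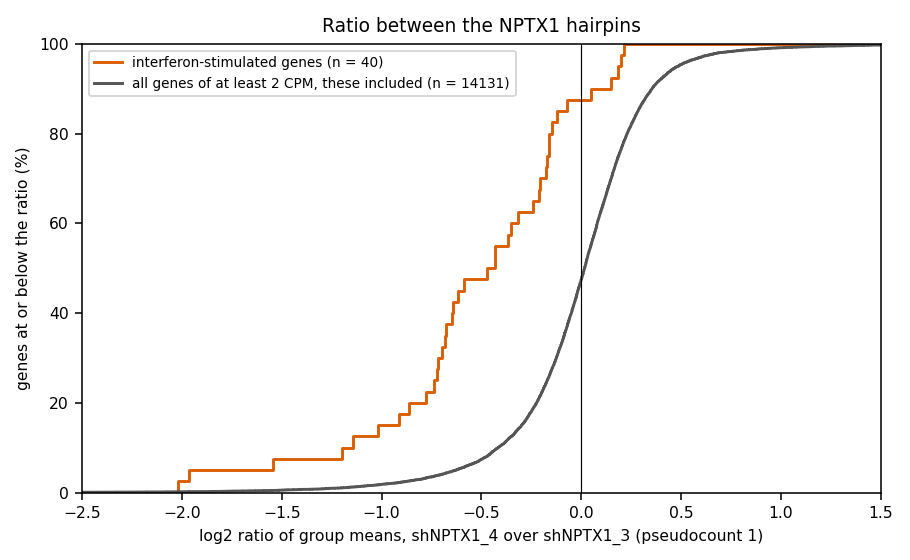
Share of genes (vertical axis, percent) with a log2 ratio of group means of shNPTX1_4 over shNPTX1_3 (horizontal axis, pseudocount 1) at or below each value. The curve of the 40 interferon-stimulated genes (orange) lies left of that of all 14131 genes of at least 2 CPM (grey) and crosses 0 at 87.5%, against 47.5%.

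The guanylate-binding proteins showed the widest gap between the hairpins. GBP2, a GTPase that coats pathogen vacuoles and is strongly induced by interferon gamma, had 156 normalized counts with shNPTX1_3, 37.8 with shNPTX1_4 and 46.5 with shCTRL in the authors' deposited table. GBP1, its neighbour on chromosome 1, had 149.8 normalized counts with shNPTX1_3, 37.6 with shNPTX1_4 and 63.6 with shCTRL in the authors' deposited table. The log2 ratio of shNPTX1_4 over shNPTX1_3 was -2.02 for GBP2 and -1.97 for GBP1, so both lay below control with shNPTX1_4 and more than 2-fold above it with shNPTX1_3. In the pooled comparison their standard errors were wide, 0.56 for GBP2 and 0.62 for GBP1 in the authors' deposited table, where genes of like mean level had a median of 0.19 each, and neither passed (DESeq2 adjusted p = 0.217 for GBP2 and 0.647 for GBP1). TRIM22, an antiviral ubiquitin ligase, had 69.2 normalized counts with shNPTX1_3, 23.1 with shNPTX1_4 and 34.0 with shCTRL in the authors' deposited table. ISG20, an exonuclease that degrades RNA, had 197 with shNPTX1_3, 85.4 with shNPTX1_4 and 110 with shCTRL in the authors' deposited table. Among the 40 genes of at least 2 CPM, GBP1, GBP2, TRIM22, SAMD9, SAMD9L and USP18 were the 6 at least 2-fold above control with shNPTX1_3, and OAS1, under that minimum, had a log2 ratio of 1.26.

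The RNA sensors followed the same order, below the 2-fold line for most. DDX58 had 2432 normalized counts with shNPTX1_3, 1805 with shNPTX1_4 and 1822 with shCTRL in the authors' deposited table. IFIH1, the sensor MDA5 for long double-stranded RNA, had 650.3 with shNPTX1_3, 321 with shNPTX1_4 and 485 with shCTRL in the authors' deposited table, a log2 ratio of -1.02 between the hairpins with shCTRL in between. DDX60, a helicase that aids RIG-I, had 961 normalized counts with shNPTX1_3, 528 with shNPTX1_4 and 646 with shCTRL in the authors' deposited table. None of these 3 passed in the pooled comparison, with DESeq2 adjusted p-values of 0.269 (DDX58), 0.853 (IFIH1) and 0.660 (DDX60) in the authors' deposited table.

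None of the 4 transcription factors of the group was called, with log2 fold changes between -0.17 and 0.03 in the authors' deposited table. STAT2 had 1366 normalized counts with shNPTX1_3, 1232 with shNPTX1_4 and 1258 with shCTRL in the authors' deposited table, and IRF9 had 294 with shNPTX1_3, 259 with shNPTX1_4 and 271 with shCTRL. Their log2 fold changes were 0.03 and 0.01 (standard errors 0.10 and 0.13) in the authors' deposited table. IRF7, which drives interferon production, had 151 normalized counts with shNPTX1_3, 175 with shNPTX1_4 and 183 with shCTRL in the authors' deposited table. IRF1, a factor induced by interferon gamma and inflammatory signals, spread further, with 1889 with shNPTX1_3, 1145 with shNPTX1_4 and 1485 with shCTRL in the authors' deposited table and a log2 ratio of -0.72 between the hairpins.

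IFIT proteins bind foreign RNA and block its translation, and their 4 genes lie in 1 stretch on chromosome 10. All 4 had their highest mean with shNPTX1_3. IFIT5 had 658 normalized counts with shNPTX1_3, 349 with shNPTX1_4 and 395 with shCTRL in the authors' deposited table, and IFIT1 had 335 with shNPTX1_3, 206 with shNPTX1_4 and 247 with shCTRL. IFIT2 had 234 with shNPTX1_3, 149 with shNPTX1_4 and 144 with shCTRL and IFIT3 had 336 with shNPTX1_3, 224 with shNPTX1_4 and 228 with shCTRL in the authors' deposited table, so that shNPTX1_4 stood near control for both. The log2 fold changes of the 4 genes in the pooled comparison ran between 0.08 and 0.37 in the authors' deposited table, and none was called.

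The ADP-ribosyltransferases and their partner had their highest means with shNPTX1_3. PARP14, a mono-ADP-ribosyltransferase, had 4557 normalized counts with shNPTX1_3, 2775 with shNPTX1_4 and 3446 with shCTRL in the authors' deposited table. PARP9 and its partner DTX3L, a ubiquitin ligase, are neighbours on chromosome 3, with 672 normalized counts with shNPTX1_3, 522 with shNPTX1_4 and 471 with shCTRL for PARP9 and 1655 with shNPTX1_3, 1226 with shNPTX1_4 and 1241 with shCTRL for DTX3L in the authors' deposited table. PARP12 varied least of the 4, with 648 with shNPTX1_3, 561 with shNPTX1_4 and 553 with shCTRL in the authors' deposited table. PARP9 came nearest to a call, with a log2 fold change of 0.32 (standard error 0.13, DESeq2 adjusted p = 0.0616 in the authors' deposited table).

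Among the MX GTPases, which trap viral nucleoproteins or capsids, MX2 had 1316 normalized counts with shNPTX1_3, 1056 with shNPTX1_4 and 1294 with shCTRL in the authors' deposited table. MX1 had 91.6 with shNPTX1_3, 53.0 with shNPTX1_4 and 93.4 with shCTRL in the authors' deposited table, so that it was lower with shNPTX1_4 and close to control with shNPTX1_3 (DESeq2 adjusted p = 0.148). RSAD2, the viperin gene, whose product makes a chain-terminating nucleotide, and its neighbour CMPK2, a mitochondrial nucleotide kinase, were lower than control with both hairpins without passing the test. RSAD2 had 45.7 with shNPTX1_3, 52.0 with shNPTX1_4 and 59.5 with shCTRL and CMPK2 had 12.1 normalized counts with shNPTX1_3, 11.7 with shNPTX1_4 and 20.9 with shCTRL in the authors' deposited table. IFI35, a partner of NMI, had 289.95 with shNPTX1_3, 188 with shNPTX1_4 and 170.3 with shCTRL in the authors' deposited table and a DESeq2 adjusted p of 0.0724. IFI6 had 336 with shNPTX1_3, 242 with shNPTX1_4 and 306 with shCTRL, and IFI44 had 118 with shNPTX1_3, 73.3 with shNPTX1_4 and 91.5 with shCTRL in the authors' deposited table. IFI44L had 14.4 normalized counts with shNPTX1_3, 21.9 with shNPTX1_4 and 21.6 with shCTRL in the authors' deposited table. IFI27, with 5.99 with shNPTX1_3, 18.6 with shNPTX1_4 and 12.8 with shCTRL, had the widest error of the group, 1.02 against a log2 fold change of only 0.05 by the authors' deposited table.

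Upstream of the group, genes of interferon production and signalling were read from a list of 70 symbols, of which 63 had a row and 49 an adjusted p in the authors' deposited table. Of the 49, 8 were higher, 3 lower and 38 not called, where 15.8% and 11.5% of all genes were called in each direction. IFNB1 and IFNG, the genes of interferons beta and gamma, were listed at 0 in every group in the authors' deposited table. IFNE, an interferon known from epithelium, was called of the 2 ligands with an adjusted p, with 31.9 normalized counts with shNPTX1_3, 28.7 with shNPTX1_4 and 14.1 with shCTRL in the authors' deposited table (log2 fold change 1.16, standard error 0.29, DESeq2 adjusted p = 5.68e-04). Of the 15 ligands on the list, 12 had a row. Apart from IFNE, these had group means of at most 3.31 normalized counts in the authors' deposited table. Ligands off the list or without a row were not read.

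Among the 6 receptor genes, IFNAR2, the signalling chain of the type I receptor to which USP18 binds, fell, with 206 normalized counts with shNPTX1_3, 183 with shNPTX1_4 and 251 with shCTRL in the authors' deposited table (log2 fold change -0.39, standard error 0.12, DESeq2 adjusted p = 0.00797). Its partner chain IFNAR1 had 775 with shNPTX1_3, 765 with shNPTX1_4 and 768 with shCTRL in the authors' deposited table. The interferon gamma receptor chain IFNGR2 rose (log2 fold change 0.36, DESeq2 adjusted p = 0.0187 in the authors' deposited table), and IFNGR1 had 1566 normalized counts with shNPTX1_3, 850 with shNPTX1_4 and 910 with shCTRL in the authors' deposited table and did not pass. IFNLR1 and IL10RB, the chains of the type III receptor, had DESeq2 adjusted p-values of 0.765 and 0.205 in the authors' deposited table. Of the kinases, JAK1 rose (log2 fold change 0.29, DESeq2 adjusted p = 0.0400 in the authors' deposited table), and JAK2 and TYK2 had log2 fold changes of -0.26 and 0.07 (DESeq2 adjusted p = 0.0800 for JAK2 and 0.590 for TYK2). The calls of IFNGR2 and JAK1 did not hold when each group was scaled to the same total, and JAK2 was then called lower.

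In the pathway that induces interferon, ADAR, which edits double-stranded RNA and so keeps it from the sensors, fell, with 2869 normalized counts with shNPTX1_3, 4351 with shNPTX1_4 and 6305 with shCTRL in the authors' deposited table (log2 fold change -0.76, standard error 0.16, DESeq2 adjusted p = 4.66e-05). MAVS, the adaptor of RIG-I and MDA5, rose (log2 fold change 0.37, DESeq2 adjusted p = 0.0245 in the authors' deposited table), a call that did not hold under the same total-count scaling. Among 12 tested genes of the interferon gamma response outside the group, GBP3, NMI, SP110 and WARS rose with log2 fold changes of 0.99, 0.58, 0.48 and 0.34, and GBP4 fell with one of -0.29, by the authors' deposited table, while 7 were not called. GBP3 had 579 normalized counts with shNPTX1_3, 275 with shNPTX1_4 and 204 with shCTRL in the authors' deposited table, the order seen for GBP1 and GBP2 between the hairpins. SP110 lost its call under total-count scaling.

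In bulk tissue, fewer cells of a type and less RNA per cell cannot be told apart. In the authors' deposited table, the 8 leukocyte markers summed to 1013 normalized counts with shNPTX1_3, 815 with shNPTX1_4 and 918 with shCTRL, most of it CD68, and PTPRC had 43.2 with shNPTX1_3, 41.7 with shNPTX1_4 and 50.2 with shCTRL. CD3E was listed at 1.23 with shNPTX1_3 and at 0 with shNPTX1_4 and shCTRL in the authors' deposited table. The 4 markers of plasmacytoid dendritic cells summed to 382 with shNPTX1_3, 520.4 with shNPTX1_4 and 534 with shCTRL. Most of it was TCF4, and LILRA4 had at most 0.847 in any group. The 4 endothelial markers summed to 419.9 with shNPTX1_3, 366 with shNPTX1_4 and 368 with shCTRL, most of it KDR. The 4 fibroblast markers, of which LUM rose, summed to 736 normalized counts with shNPTX1_3, 1042 with shNPTX1_4 and 744 with shCTRL in the authors' deposited table, most of it COL1A1. A sum led by 1 gene is not a measure of the cells of that type. The 5 hepatocyte markers summed to 98.1 with shNPTX1_3, 48.5 with shNPTX1_4 and 40.3 with shCTRL, of which APOA1 rose, and no marker list had a gene at 0 in every group. Of the leukocyte, plasmacytoid and endothelial markers 0 were called in the authors' deposited table, where CD3E and LILRA4 had no adjusted p. When each group was scaled to the same total, PECAM1 (Benjamini-Hochberg adjusted p = 0.0452) and CLEC4C (adjusted p = 0.0499) were called lower. The part of these markers in the values of the interferon-stimulated genes was not tested. Of the 5 tumour cell markers KRT7, KRT8 and KRT18 rose, and KRT8 had 30512 normalized counts with shNPTX1_3, 14002 with shNPTX1_4 and 8293 with shCTRL in the authors' deposited table. How reads of the mouse genome, which the submitters' processing notes list beside the human one, were set apart is not stated in the sources at hand. The marker rows carry human gene symbols, so it is not known whether they reflect any cells of the host.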

How the data were processed

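Liver tumours of PANC1 LM3 cells were profiled by RNA-seq in 11 libraries. RNA was extracted by a Norgen kit and prepared with TruSeq, per the labels' protocols. Per the submitters' processing notes the authors named the builds hg19 and mm39 and the tools DESeq2 1.24, MultiQC 1.9, featureCounts 2.0.0 and STAR 2.7.6a, without roles. The deposited group means are a signal, counts divided by size factors and averaged over a group by the authors. The log2 fold change and its standard error, the Wald statistic (a score), the p-value and the adjusted p are the authors', per the file headers. The fold change differed from the log2 ratio of the knockdown and control means by a median of 0.0040 over 16368 genes with a mean of at least 10. Of 23434 rows, 107 with no name, a calendar date or a repeated name were left out (0.387% of mean counts).

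Because the file holds group means, the planned test of counts per library was replaced by the authors' comparison, read over all 18426 named genes with an adjusted p. Ratios of group means used a pseudocount of 1, which understates changes of low genes, and a minimum of 2 CPM. For other scalings the fold changes were shifted, divided by the authors' standard errors and the resulting normal p-values adjusted by Benjamini-Hochberg. Promoters are from RefSeq, lengths and shared 50-base windows from GENCODE v29; neither is the build of the counts. Python 3.11.15, pandas 2.3.3, scipy 1.17.1 and matplotlib 3.10.9 were used, and the adjustment and the ratios were checked on simulated data. Every gene of the group was to be named, with its statistics where called and its means where at least 2 CPM or past 2-fold, and ISRE promoters of the most changed called genes were to be printed, then those of the highest means. The genes, lists and tests were chosen with earlier results of these data known. Genes under a low mean carry wide errors, and shallow libraries weigh as much as deep ones in a group mean.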

Additional observations from a re-analysis of the deposited data

How the results depend on the processing

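All 10 calls were kept when each group was scaled to the same total (a shift of -0.07 in every log2 fold change), when changes were centred on their median (a shift of -0.02) and when p-values were adjusted over all rows with a p. XAF1 was added by both scalings. The fold changes of STAT2, IRF9, IFI27, IFI44 and PARP14, none of them called, changed sign under total-count scaling, to -0.033, -0.061, -0.011, -0.051 and -0.028, and those of IRF9 and IFI44 under centring, to -0.017 and -0.0074. At an adjusted p under 0.10, 5 genes were called higher rather than 3. At 1.5-fold in place of 2-fold, 13, 8 and 19 genes were apart for shNPTX1_3 over shCTRL, shNPTX1_4 over shCTRL and shNPTX1_4 over shNPTX1_3, against 6, 0 and 6. Of the 11 called genes of interferon production and signalling, 8 higher, 5 were called at an adjusted p under 0.01, 3 of them higher, and 4 higher under total-count scaling. There were 35 genes lower with shNPTX1_4 than with shNPTX1_3 at each other pseudocount and under total-count scaling, and 38 of all 45 with no minimum. With no minimum, 7, 0 and 8 genes were 2-fold apart for shNPTX1_3 over shCTRL, shNPTX1_4 over shCTRL and shNPTX1_4 over shNPTX1_3. The ISRE core was in 24 of 36 promoters before the start alone. No paired analysis was possible because the columns are group means with no replicate numbers. For the same reason tests of counts per library and fits without each library were not run, so it is not known which calls rest on 1 library. Depth limits BST2, CMPK2, IFI27, IFI44L and OAS1 most.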
